A study of Mus musculus with 6 samples.

Results

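Clade B serpins are a family of protease inhibitors that stay inside the cell, and 7 of them are described here in mammary tumors and normal mammary glands of mice that overexpress ATF3. The 7 genes, *Serpinb1a*, *Serpinb5*, *Serpinb6a*, *Serpinb6b*, *Serpinb8*, *Serpinb9* and *Serpinb12*, were chosen by their symbols, with earlier results of these data known. Each had a row in the deposited expression table of 15280 genes. The table holds another 16 rows whose symbol starts with Serpinb and 22 serpins of other clades. RNA-Seq libraries had been made with the Ovation RNA-Seq System V2 from total RNA of single tumors (T) and of adjacent normal glands (M) of the same 3 mice. The mice were parous BK5.ATF3 transgenic females, in which the bovine keratin 5 promoter drives ATF3 in basal epithelial cells. Tumors appeared when the animals were 6 to 12 months old and were collected at a length of 1.5 cm. Both tissues carried the transgene, so no wild-type tissue enters the comparison, and each library is 1 bulk sample in which fewer cells of a type and less RNA per cell cannot be told apart.

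A serpin inhibits its target protease by acting as bait. The protease cuts an exposed loop of the serpin, which then changes its fold and traps the enzyme. Clade B members lack a classical secretion signal and protect cells from their own proteases or from those of neighbouring immune cells, and many are made by keratinocytes, the cells of stratified epithelium. In the mouse these genes lie in a cluster on chromosome 1, which holds *Serpinb5* (maspin), and in another on chromosome 13, where several ancestral genes have been copied into families of close relatives. Maspin takes its name from the mammary gland, where myoepithelial cells express it, and it is best known as a tumor suppressor that does not work by inhibiting a protease.

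The sequences upstream of 4 of the 7 genes are shown first, to set the promoters of the 3 genes that rose in the tumors beside that of *Serpinb9*, whose fold change was closest to 0. Each is the 250 bases before an annotated RefSeq start on GRCm38.p6, read 5′ to 3′ on the strand of the gene. Capitals mark the motifs that were searched. These were TGAGTCA, the consensus of the AP-1 factors (JUN, FOS and, with JUN, ATF3), its looser form TGANTCA, the CRE TGACGTCA, the grainyhead motif AACNGGTT, the ETS motif CCGGAAGT and the TATA box TATAAA, on both strands. TGANTCA includes the consensus.
Serpinb5 (chr1:106860925-106861174, plus strand): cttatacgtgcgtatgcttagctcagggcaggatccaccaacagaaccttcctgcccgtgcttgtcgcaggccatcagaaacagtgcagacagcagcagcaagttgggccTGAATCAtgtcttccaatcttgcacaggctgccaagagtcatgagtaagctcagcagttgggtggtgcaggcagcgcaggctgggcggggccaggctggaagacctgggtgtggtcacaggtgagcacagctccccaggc
Serpinb8 (chr1:107589756-107590005, plus strand): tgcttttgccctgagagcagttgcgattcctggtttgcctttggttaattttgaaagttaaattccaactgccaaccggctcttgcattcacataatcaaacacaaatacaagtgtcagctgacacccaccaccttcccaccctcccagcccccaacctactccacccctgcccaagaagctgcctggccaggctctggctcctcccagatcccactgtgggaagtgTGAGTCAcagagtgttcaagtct
Serpinb12 (chr1:106934199-106934448, plus strand): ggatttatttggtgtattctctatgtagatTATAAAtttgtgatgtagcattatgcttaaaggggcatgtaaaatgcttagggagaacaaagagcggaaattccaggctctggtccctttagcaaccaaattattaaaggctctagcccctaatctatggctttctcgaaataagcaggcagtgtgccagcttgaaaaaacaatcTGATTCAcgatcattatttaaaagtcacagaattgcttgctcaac
Serpinb9 (chr13:33004291-33004540, plus strand): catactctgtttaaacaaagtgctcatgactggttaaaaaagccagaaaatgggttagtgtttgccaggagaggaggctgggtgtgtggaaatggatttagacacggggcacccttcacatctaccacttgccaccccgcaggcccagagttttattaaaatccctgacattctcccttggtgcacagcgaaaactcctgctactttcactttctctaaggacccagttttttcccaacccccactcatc
The *Serpinb8* window holds the AP-1 consensus, starting 23 bases before the start site. In the *Serpinb5* window the letters are TGAATCA, 140 bases before the start, and in the *Serpinb12* window TGATTCA, 45 bases before it, so both match only the looser form. *Serpinb12* has another annotated start, at whose window neither form occurs. The *Serpinb12* window also holds TATAAA, 220 bases before the start, and the *Serpinb9* window holds none of the motifs. Of all 32851 RefSeq windows of this length, 4.46% hold the consensus and 6.75% the looser form.

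RefSeq gave a window for 6 of the 7 genes (*Serpinb1a* had none) and for 20 of the 23 clade B rows. Counting alternative starts, TGANTCA occurred in 3 of 8 windows of the 7 genes, in 7 of 12 clade B windows on chromosome 1 and in 0 of 12 on chromosome 13. TATAAA, present in 12.4% of all windows, occurred in 9 of 12 windows on chromosome 1 and in 0 of 12 on chromosome 13. Its matches lay from 29 bases (*Serpinb2*) to 239 bases (*Serpinb7*) before a start. Those of *Serpinb3d* and *Serpinb7* were on the opposite strand. The count is of letters at any place in the window. The windows of the alternative *Serpinb2* starts overlap and hold the same TGAATCA and the same TATAAA. Counted by gene, TGANTCA occurred in 6 of 10 genes on chromosome 1 and TATAAA in 7 of 10. The CRE, grainyhead and ETS motifs, present in 1.55%, 1.79% and 2.88% of all windows, occurred in 0 of the 24 clade B windows. Such matches describe letters in a window. No binding was measured, and windows of related genes share ancestry. The 4 sequences shown were picked by fold change, and the risers among them are all on chromosome 1. The 7 other clade B rows on chromosome 13 rose in the tumors too, and their windows hold none of the motifs. A link between motif and change was not tested.

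Expression is given as CPM, in which the fragments on a gene are scaled to a common effective library size, and 4750989 to 7806908 fragments per library fell on genes. The question of the comparison was which genes differ between tumor and gland. Tumors were compared with glands by the two-sided moderated test of limma on log2(CPM + 0.5), and p-values were adjusted over all 15280 genes (Benjamini-Hochberg). A gene was called up or down when the adjusted p did not exceed 0.05 and the change was 2-fold or more. Of the 7 serpins, 3 were called up (*Serpinb5*, *Serpinb8* and *Serpinb12*, the 3 on chromosome 1), where 14.5% of all genes were called up. None of the 7 (0) was called down by limma, edgeR or DESeq2, where 13.7% of all genes were called down by limma. At an unadjusted p under 0.05, 1 of the 7 (*Serpinb1a*) was lower in each tool, and 4 were higher, the 3 called up and *Serpinb6a*. The share of all genes under that unadjusted p is not given here, so this count says nothing particular about the 7. Without the fold threshold, 6289 of the 15280 genes already passed the adjusted p of 0.05 (limma). The 3 tumors lay all above the 3 glands for the same 3 genes, as they did for 27.6% of all genes, and all below them for *Serpinb1a*, as for 26.3% of all genes. The median log2 fold change of the 7 was 0.61, against -0.003 over all genes.

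**Figure D1:**
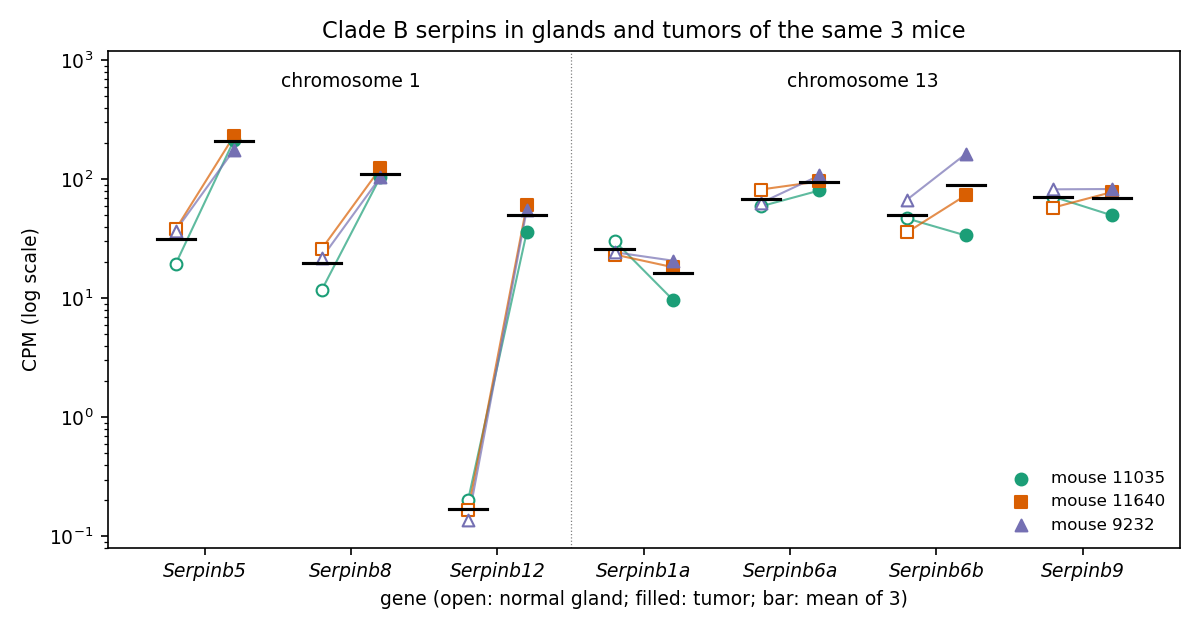
CPM (log axis) of the 7 serpins in the normal gland (open) and the tumor (filled) of each mouse, joined by a line, with black bars at the mean of 3. The 3 genes on chromosome 1 rose in every mouse, while on chromosome 13 the tumors of *Serpinb6a*, *Serpinb6b* and *Serpinb9* overlapped the glands and those of *Serpinb1a* lay below them.

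*Serpinb5*, or maspin (chromosome 1, 108757750 to 108779925 on mm9, plus strand), had 19.3, 37.8 and 36.9 CPM in glands M11035, M11640 and M9232 and 214, 232 and 177 CPM in tumors T11035, T11640 and T9232. The tumors all lay far above the glands, and the tumor of the mouse with the lowest gland was not the lowest tumor. The mean rose from 31.4 ± 10.4 CPM (SD, n = 3) to 208 ± 27.9 CPM, a ratio of 6.62, with a log2 fold change of 2.76 (SE 0.26, adjusted p = 7.86e-05, limma). Within mice the log2 difference was 3.43, 2.60 and 2.25. Its transcript matched no transcript of another gene over 200 or more bases.

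*Serpinb8* (chromosome 1, 109486583 to 109505486, plus strand), an inhibitor of the proprotein convertase furin, was the last clade B row of the same cluster, in which *Serpinb5* was the first. It had 11.8, 26.1 and 21.9 CPM in the glands and 104, 124 and 104 CPM in the tumors, in the same order of mice. The groups did not overlap, and gland M11035 was the lowest library for this gene as it was for *Serpinb5*. The mean rose from 19.9 ± 7.35 to 111 ± 11.2 CPM, a ratio of 5.56, with a log2 fold change of 2.51 (SE 0.27, adjusted p = 1.70e-04, limma). The 95% intervals of the log2 fold changes of *Serpinb5* (2.17 to 3.35) and *Serpinb8* (1.89 to 3.14) overlapped.

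*Serpinb12* (chromosome 1, 108831026 to 108853657, plus strand), an epithelial inhibitor of trypsin-like proteases, was barely detected in the glands and clearly expressed in the tumors. Each gland had a single fragment of it, or 0.203, 0.165 and 0.137 CPM, and the tumors had 35.9, 60.2 and 55.3 CPM, from 1021 fragments in all. A single fragment is below the detection floor of 3 fragments per library. The pooled ratio of tumor to gland was 316, with an exact 95% interval of 108 to 1536 (Clopper-Pearson, counting error only). The log2 fold change on the CPM + 0.5 scale, which understates the change of a gene this low, was 6.22 (SE 0.27, adjusted p = 1.76e-06, limma).

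*Serpinb1a* (chromosome 13, 32933961 to 32943054, minus strand), which inhibits neutrophil elastase, cathepsin G and proteinase 3, was the one with lower values in all tumors. It had 30.3, 23.3 and 24.3 CPM in the glands and 9.68, 18.2 and 20.7 CPM in the tumors. Tumor T11035 was well under the other tumors, which lay closer to the glands. The log2 fold change was -0.72 (SE 0.29), with an unadjusted p = 0.0330 and an adjusted p = 0.0723 (limma), so the gene did not pass the test. The within-mouse log2 difference was -1.6 in the mouse of T11035, against -0.35 and -0.23 in the other mice.

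*Serpinb6a* (chromosome 13, 34009787 to 34094663, minus strand), an inhibitor of cathepsin G, had 59.2, 81.9 and 63.2 CPM in the glands and 80.4, 95.8 and 107 CPM in the tumors. Every mouse had a higher value in its tumor, but tumor T11035 fell below gland M11640, so the groups overlapped. The log2 fold change of 0.47 (SE 0.18), with an unadjusted p = 0.0287 and an adjusted p = 0.0650 (limma), did not pass. In the mm9 annotation exons of *Serpinb6a* overlap those of *1110046J04Rik*, *Nqo2* and *Ripk1*, so part of its fragments may be of uncertain origin.

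*Serpinb6b* (chromosome 13, 33057182 to 33070936, plus strand), a close relative of *Serpinb6a*, varied most among the tumors. It had 46.8, 35.8 and 67.4 CPM in the glands and 33.7, 73.3 and 163 CPM in the tumors, so that the highest tumor was 4.83 times the lowest. Tumor T9232 was above every gland and tumor T11035 below every gland. The log2 fold change of 0.61 had an SE of 0.50 (adjusted p = 0.361, limma), and its 95% interval of -0.53 to 1.74 covered both a fall and a rise above the fold threshold. The transcripts of *Serpinb6a* and *Serpinb6b* are 85.6% identical over 1170 aligned bases. The ratio of *Serpinb6b* to *Serpinb6a* was 0.790, 0.438 and 1.07 in the glands and 0.419, 0.765 and 1.51 in the tumors, highest in the mouse of T9232 in both tissues.

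*Serpinb9* (chromosome 13, 33095119 to 33109826, plus strand), the inhibitor that guards cytotoxic lymphocytes and other cells against granzyme B, had 71.2, 57.8 and 82.2 CPM in the glands and 49.7, 78.0 and 82.7 CPM in the tumors. The groups overlapped almost completely, with means of 70.4 ± 12.2 and 70.1 ± 17.9 CPM. The log2 fold change was -0.03 (SE 0.23, adjusted p = 0.941, limma), with a 95% interval of -0.54 to 0.49. That interval lies inside a change of 2-fold in either direction.

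Levels of different genes were compared as mean CPM per kb of exon. In the glands *Serpinb6b* (23.9 ± 7.68) and *Serpinb9* (20.1 ± 3.50) were the highest and overlapped each other, followed without overlap by *Serpinb1a* (13.4), *Serpinb6a* (12.6), *Serpinb5* (11.4) and *Serpinb8* (6.19), each of which overlapped the next. *Serpinb12* came last (0.0674). In the tumors *Serpinb5* led (75.5 ± 10.2 CPM per kb), followed by *Serpinb6b* (43.0 ± 31.6) and *Serpinb8* (34.4 ± 3.49), and the range of *Serpinb6b* overlapped both of its neighbours. That range, 16.1 to 77.9, also overlapped those of *Serpinb12*, *Serpinb9* and *Serpinb6a*, so the rank of *Serpinb6b* is uncertain. *Serpinb12* (20.2), *Serpinb9* (20.1) and *Serpinb6a* (17.5) followed and overlapped one another in turn, and *Serpinb1a* (8.33) was last without overlap. By mean, maspin moved from rank 5 of the 7 in the glands to rank 1 in the tumors, and *Serpinb1a* from rank 3 to rank 7, with the overlaps given.

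The other 16 clade B rows were called up by limma (16 of 16, against 14.5% of all genes), with log2 fold changes from 3.12 to 7.59 and a median of 4.47, or 5.25 with rows at a low count in the glands taken at their pooled ratio or lower bound. A row entered the table only with 10 or more fragments over all samples. Of the 16 rows, 12 had under 10 fragments in the 3 glands together, so they are in the table only through their tumor fragments. This filter favours rows that are higher in the tumors, so their count of calls supports nothing about the family. The same holds for *Serpinb12* among the 7. The chosen 7 included the 4 clade B rows that were not called. The 16 genes were barely detected in the glands, where their CPM summed to 3.46, 4.96 and 6.70, and reached 750, 895 and 713 CPM in the tumors. The 7 serpins described above summed to 239 to 296 CPM in the glands and 527 to 710 CPM in the tumors. Rows called up numbered 12 of 12 on chromosome 1 and 7 of 11 on chromosome 13, beside 14.5% of all genes, but 8 of the former and 5 of the latter were in the table only through the tumors. These rows are neighbours and relatives, and no test of the difference between the clusters was made.

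**Figure D2:**
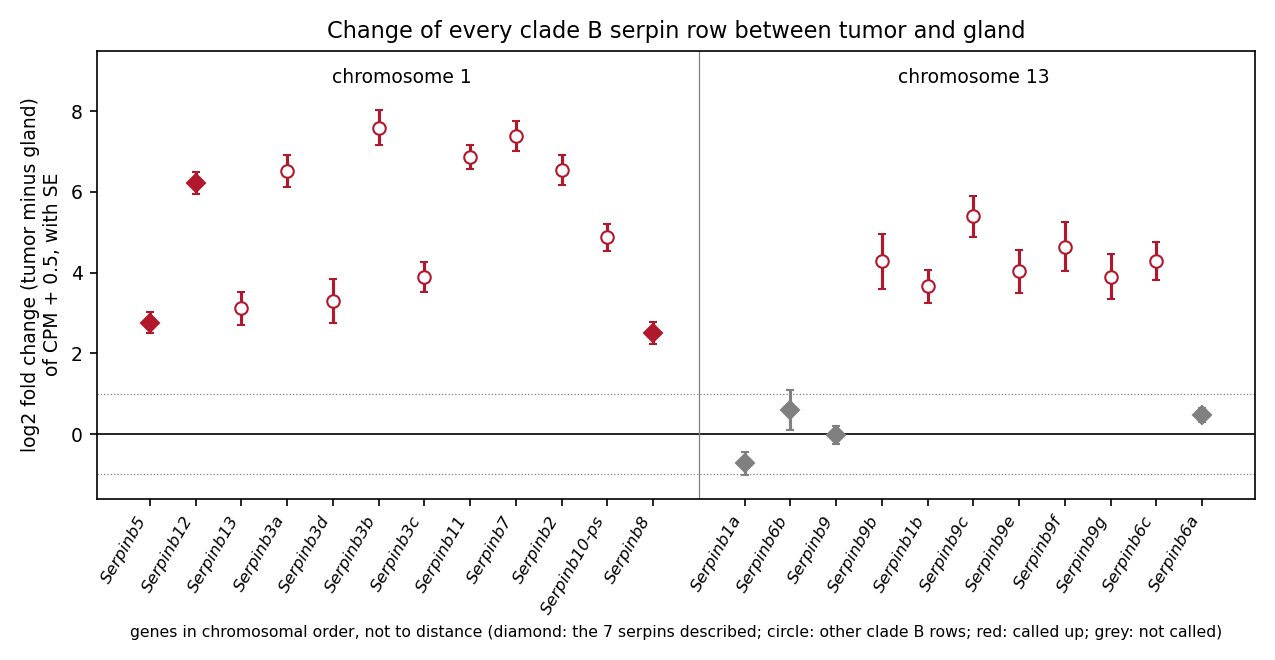
Log2 fold change (tumor minus gland, of CPM + 0.5) with SE of all 23 clade B rows in chromosomal order, not to distance, with dotted lines at the fold threshold. All 12 rows on chromosome 1 are above 2, and the 4 grey diamonds on chromosome 13 are the rows that were not called.

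On chromosome 1 *Serpinb3b* had a log2 fold change of 7.59 on the CPM + 0.5 scale (limma, adjusted p = 6.87e-06), and is a relative of the squamous cell carcinoma antigens, which inhibit cysteine proteases. It went from 0.507 ± 0.309 to 211 ± 105 CPM and its exons overlap those of *Serpinb3c*, whose transcript is 93.7% identical. *Serpinb7* rose to 138 ± 50.1 CPM (log2 fold change 7.40) and *Serpinb11* to 94.1 ± 28.5 CPM (6.86). *Serpinb2*, the urokinase inhibitor PAI-2, rose to 70.9 ± 28.7 CPM with a pooled ratio of 334 (exact 95% interval 130 to 1228, or 201 without gland M9232), and its exons overlap those of *Serpinb10-ps* (4.88). *Serpinb3a* had a pooled ratio of 544 (150 to 4501), with 2 gland fragments that both came from M9232. *Serpinb13*, *Serpinb3c* and *Serpinb3d* had 0 fragments in every gland and were at least 8.11-fold, 14.5-fold and 10.5-fold higher in the tumors, measured against the floor of 3 fragments per library.

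On chromosome 13 the genes that rose were close relatives of those that did not. *Serpinb1b*, 89.0% identical to *Serpinb1a* over 1316 aligned bases, rose from 0.519 ± 0.264 to 13.4 ± 7.14 CPM (limma, log2 fold change 3.67, adjusted p = 1.97e-04). *Serpinb6c*, 86.5% identical to *Serpinb6b*, rose from 0.293 ± 0.276 to 16.3 ± 10.2 CPM (4.29). *Serpinb9b*, 78.3% identical to *Serpinb9*, rose from 0.820 to 36.1 ± 30.9 CPM (4.29). *Serpinb9c* had 14.1, 26.5 and 70.0 CPM in T11035, T11640 and T9232 and a pooled ratio of 173 (exact 95% interval 67.3 to 637), or 97.7 without T9232. *Serpinb9f* had 5.95, 22.7 and 40.0 CPM and a pooled ratio of 110 (42.5 to 404), or 72.1 without T9232. *Serpinb9e* had a pooled ratio of 49.2 (22.4 to 135), and *Serpinb9g*, at 0 in every gland, was at least 17.0-fold higher. Transcripts of *Serpinb9f* and *Serpinb9g* are 97.6% identical and those of *Serpinb9e* and *Serpinb9f* 95.5%, and *Serpinb9f* is 99.1% identical to *Gm11397* over 1862 aligned bases, so the split of fragments among these genes is uncertain.

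The tumors differed in the order of the clusters. This was seen in the values, not planned, and is given without a test. In all 11 clade B rows on chromosome 13, including *Serpinb1a*, *Serpinb6a*, *Serpinb6b* and *Serpinb9*, T9232 was the highest tumor and T11035 the lowest. That order held for 1 of 12 rows on chromosome 1 (*Serpinb2*), for 23.2% of all genes and for 30.0% of the genes called up. Summed CPM on chromosome 13 was 223, 399 and 639 in T11035, T11640 and T9232, and on chromosome 1 it was 1055, 1178 and 784. On chromosome 1, T9232 was the lowest tumor in 9 of 12 rows, *Serpinb5* and *Serpinb8* among them. The spread for the 4 genes described on chromosome 13 ran from a ratio of highest to lowest tumor of 1.34 for *Serpinb6a* to 4.83 for *Serpinb6b*.

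**Figure D3:**
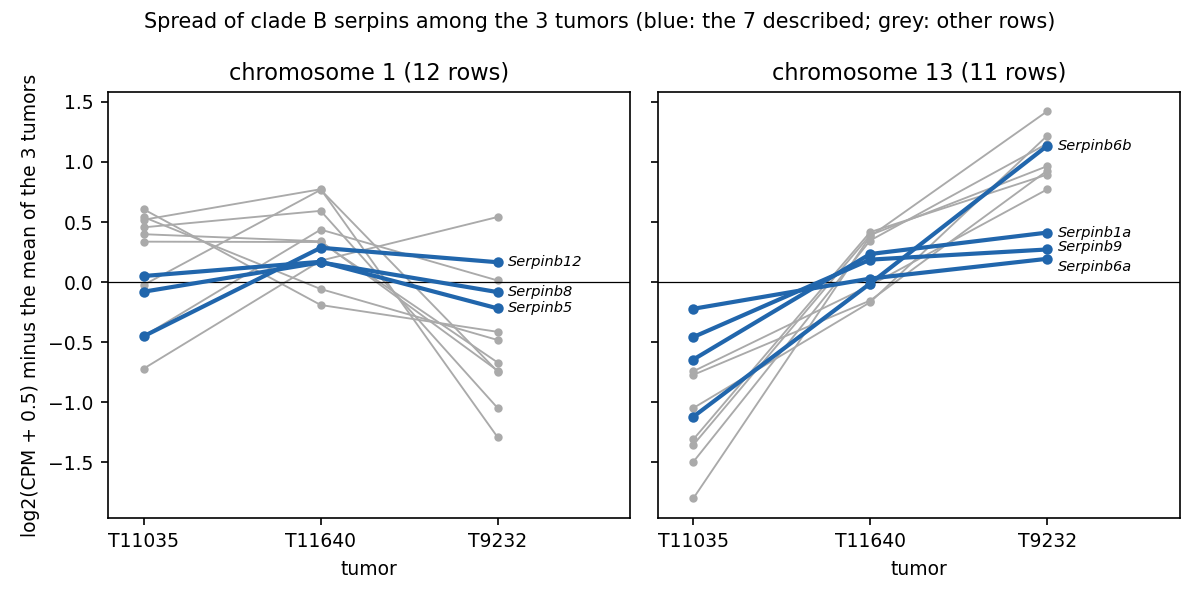
Deviation of log2(CPM + 0.5) from the mean of the 3 tumors for 12 clade B rows on chromosome 1 and 11 on chromosome 13, with blue lines for the 7 serpins described and grey for the others. All chromosome 13 rows are lowest in T11035 and highest in T9232, and on chromosome 1 T9232 is lowest in 9 of 12 rows.

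Proteases that clade B serpins inhibit, and genes of their surroundings, were counted by list. For this and the lists that follow, 14.5% of all genes were called up and 13.7% down by limma. No list was tested as a set, and a count near these shares says nothing particular about its list. The neutrophil proteases named above as targets of *Serpinb1a* and *Serpinb6a*, encoded by *Elane*, *Prtn3* and *Ctsg*, were listed. No row was found for them or for *Tpsab1*, so they were not compared. The other 3 of the 7 listed serine proteases, all of mast cells, were called down, namely *Cma1* (log2 fold change -2.44), *Mcpt4* (-3.02) and *Tpsb2* (-2.32). Mast cell markers moved with them, with 3 of 5 called down and 1 (*Hdc*) up and a summed level of 77.5 to 159 CPM in glands and 36.6 to 65.7 CPM in tumors. Of 10 neutrophil markers 5 were called up and 3 down, with a median log2 fold change of 0.38. The granule genes *Ltf* (-2.97, from 250 ± 217 to 27.3 ± 15.6 CPM), *Ngp* (-2.96) and *Mpo* (-1.96) were called down, and *S100a8* (4.34), *S100a9* (4.26, from 40.4 ± 30.9 to 683 ± 210 CPM), *Csf3r* (2.38), *Cxcr2* (1.68) and *Mmp8* (1.54) were called up. Among the glands *Ltf* was highest in M9232 (500 CPM), whereas *Ngp* and *Mpo* were highest in M11035 (19.5 and 6.30 CPM). Which cells gave the *Ltf* values was not tested. The part of mast cells and neutrophils in the values of *Serpinb1a* and *Serpinb6a* was not tested either.

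Granzymes and perforin, the weapons of cytotoxic cells, split. *Gzmb*, the target of *Serpinb9*, had 3.77 ± 2.92 CPM in glands and 4.25 ± 2.57 CPM in tumors and did not pass (log2 fold change 0.30, adjusted p = 0.718, limma). Of the 8 that were measured, 5 were called up by limma, against 14.5% of all genes. Among them were *Gzme* (4.6, adjusted p = 1.59e-04, limma) and *Gzmc* (3.75), and *Gzmd*, *Gzmf* and *Gzmg* were at 0 in every gland. Mean gland levels of *Gzme* and *Gzmc* were 0.055 and 0.068 CPM. These 5 are in the table only through the tumors, so their count of calls supports nothing about the granzymes. *Gzma* (-2.87) and the pore-forming *Prf1* (-1.31) were called down. Only 3 were called up when any 1 of M11035, M11640, M9232, T11640 or T9232 was left out, and only 1 was called down without M11035, M11640, T11035 or T11640, and with the mouse as a block. All 10 T and NK cell markers were called down, and their summed level went from 207 to 496 CPM in glands to 28.8 to 50.6 CPM in tumors. Of 10 macrophage markers 0 were called in either direction by limma. The part of either cell type in the *Serpinb9* level was not tested.

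*Furin*, the target of *Serpinb8*, had 14.1 ± 1.27 CPM in glands and 28.4 ± 4.18 CPM in tumors, a log2 fold change of 0.98 (limma, adjusted p = 0.00334) that was just under the fold threshold. Of the 7 proprotein convertases measured, 3 were called up, led by *Pcsk5* (2.21), and *Pcsk6* (-1.26) was called down, but 0 were called down by limma without M11640, T11035 or T11640. Of 10 epithelial trypsin-like proteases and Kunitz inhibitors, the kind of enzymes *Serpinb12* inhibits and their other inhibitors, 7 were called up and 0 down by limma (1 down without gland M11035). *Tmprss11e*, at 0 in every gland and so in the table only through the tumors, reached 46.3 ± 25.1 CPM. The matriptase gene *St14* rose by 1.84 and its inhibitor *Spint1* by 2.69 on the log2 scale, while *Hpn* had the lowest value (-0.995, adjusted p = 0.0940, limma). Cysteine cathepsins gave 2 up and 2 down of 10, beside 14.5% and 13.7% of all genes. *Ctsk* (2.34) and *Ctsw* (-2.13) were at the ends, and *Ctsc*, which activates granzymes and neutrophil proteases, was called up (1.33). In the inflammatory caspase list 2 of 9 were called up, *Il1b* (5.24) and *Nlrp3* (2.47), beside 14.5% of all genes. The lowest value was that of *Gsdmd* (-0.23), and 4 were called up when gland M9232 was left out.

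**Figure D4:**
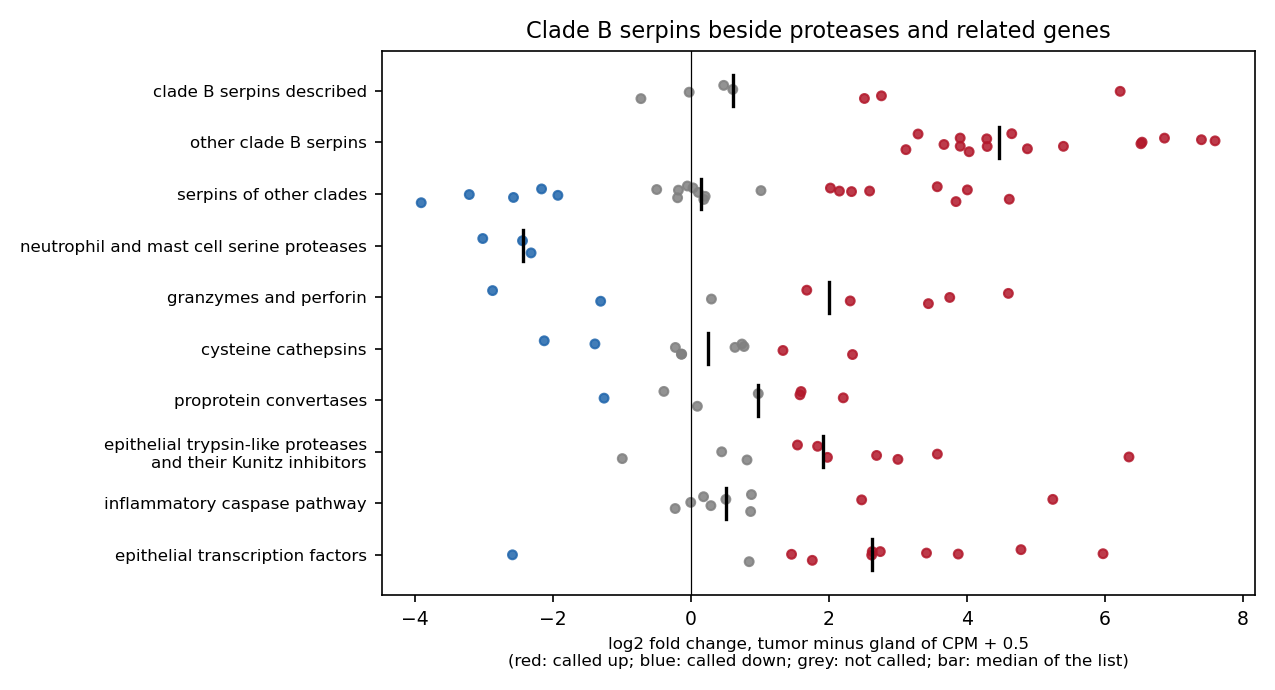
Log2 fold change (tumor minus gland, of CPM + 0.5) of each gene of the clade B serpins and of the related lists, with red for called up, blue for called down, grey for not called and a bar at the median of each list. The other clade B serpins all lie above 3, whereas the 7 described run from -0.72 to 6.22.

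Serpins of other clades moved both ways, with 8 called up and 5 down of 22, beside 14.5% and 13.7% of all genes, and a median of 0.15. *Serpine2*, a secreted inhibitor of thrombin and urokinase, had the largest rise (4.61, from 11 ± 2.82 to 276 ± 16.4 CPM), and *Serpina3c* the largest fall (-3.91). Transcription factors of stratified and mammary epithelium were called up in 9 of 11 cases, led by *Grhl3* (5.97), with *Trp63*, the master factor of basal cells, at 3.41 and *Elf5*, a factor of luminal milk-producing cells, called down (-2.59).

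Markers of stratified epithelium moved with *Serpinb5*, *Serpinb8* and *Serpinb12*. All 7 basal epithelial markers in the table were called up, with a summed level of 80.7 to 176 CPM in glands and 2297 to 2586 CPM in tumors, and so were all 9 suprabasal epidermal markers, at 15.5 to 18.1 CPM and 2706 to 4278 CPM, *Lor* being at 0 in every gland. Of 9 general epithelial markers 6 were called up (213 to 449 CPM, then 685 to 1018 CPM). All 9 adipocyte markers (3499 to 6787 CPM in glands, 168 to 227 CPM in tumors) and all 6 B cell markers (287 to 699 CPM, then 8.54 to 10.4 CPM) were called down, and the muscle list summed to 3864 and 1503 CPM in glands M11035 and M11640 and to 5.47 CPM in M9232. Of 10 endothelial markers 2 were called down, beside 13.7% of all genes, and 0 up. Of 7 fibroblast markers 4 were called up, beside 14.5% of all genes. The part of these shifts in the serpin values was not tested. *Atf3* itself had 4.47, 8.09 and 22.6 CPM in the glands and 13.4, 18.3 and 19.3 CPM in the tumors, overlapping groups with a log2 fold change of 0.80 (limma, adjusted p = 0.223), and the table does not separate the transgene from the mouse gene.

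Likeness of pattern was measured over all 6 libraries as the root mean square (RMS) difference of log2(CPM + 0.5), each gene centred on its median, among 14711 genes whose mean reached 1 CPM. Nearest to *Serpinb5* were *Fermt1* (RMS 0.132) and *Scube1* (0.150), and nearest to *Serpinb8* were *Akr1b8* (0.0869) and *3632451O06Rik* (0.119). *Serpinb12* lay nearest to *Tmprss11g* (0.137), a trypsin-like protease gene, and *Pglyrp4* (0.177), an epidermal peptidoglycan recognition protein. *Serpinb6b* was nearest to *Trem2* (0.245), a macrophage receptor, and *2200002D01Rik* (0.251), though at a larger distance than for any of the other 6 serpins. For *Serpinb1a* the nearest were *2310061C15Rik* (0.125) and *Cbx8* (0.131), for *Serpinb6a* *Prdx2* (0.0386) and *Snora81* (0.0549), and for *Serpinb9* *Abhd2* (0.115) and *Crtc1* (0.117). These distances describe 6 libraries of 2 tissues and carry no test.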

How the data were processed

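RNA-Seq data of 3 tumors and 3 glands were used. Per the submitters' processing notes and the methods of the study, the authors used CASAVA 1.8.2, mapped read pairs to mm9 with TopHat2 2.0.3, counted fragments on RefSeq genes with HTSeq 0.5.3p9, and required 10 fragments over all samples (lowest total here 11). The authors deposited an expression signal in CPM, on the effective library size of edgeR 3.6.1. Column sums differ on this scale, so these values were treated as a signal, with the log-scale test planned for CPM. All values (100%, within 0.01 step) were whole fragments, 4750989 to 7806908 per library. edgeR's TMM gave back the deposited sizes (ratio 1). Libraries of a tissue were not copies (chi-square per degree of freedom at least 13.0).

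The test was that of limma 3.58.1 (R 4.3.3) with a mean-variance trend. edgeR 4.0.16 and DESeq2 1.42.0 on recovered fragments were alternatives, as were other pseudocounts, filters, scalings, no trend, each library left out and a mouse block. Of these fits, limma with and without the mouse block, edgeR and DESeq2 were tested on simulated data. Tumor and gland of a number come from the same mouse, so the numbers pair the samples. Their deviations from the group means correlated with r = 0.107, 0.151 and 0.0168 (mice 11035, 11640 and 9232) over 14712 genes. Unmatched glands and tumors ran from r = -0.168 to 0.0405, so the value of mouse 9232 did not stand out from them. No mouse term is stated in the study's methods, so the fit reported has none. The smallest p of an exact permutation test with 3 a group is 0.1 (two-sided), so calls rest on variance shared across genes.

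The members and lists were chosen with earlier results of these data known. Named genes are the 7 serpins, other Serpinb rows, the highest and lowest of each list with a mean of at least 1 CPM, called genes against their list's majority, *Atf3* and the 2 nearest genes of each member. Other list genes were named after their values were seen. *Gsdme* and *Adgre1* were matched as *Dfna5* and *Emr1*. Positions are from the mm9 annotation and transcript identities from BLAST 2.17.0 (at least 200 aligned bases). Promoters are from RefSeq on GRCm38.p6, and no coordinate was converted. 0 columns were left unused.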

Additional observations from a re-analysis of the deposited data

How the results depend on the processing

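The 3 calls up (*Serpinb5*, *Serpinb8*, *Serpinb12*), the 0 calls down and the 16 calls up of the other rows were the same in number in every alternative run. With the replicate block they were again 3, 0 and 16, and 4298 genes were called over the table against 4309, so the block changed no call of the 7 serpins. Of the 7, only *Serpinb9* changed sign. Its log2 fold change of -0.03 was 0.0027 with DESeq2, and from -0.16 to 0.20 when 1 library was left out (0.09 without gland M9232, 0.20 without tumor T11035), with an adjusted p never under 0.441. Over all alternatives *Serpinb5* lay between 2.45 and 2.92 and *Serpinb8* between 2.18 and 2.74. *Serpinb12* ranged from 5.43 (pseudocount of 1) to 8.27 (DESeq2), since its gland level is 1 fragment. *Serpinb6b* depended on single libraries, at 0.04 without tumor T9232 and 1.17 without tumor T11035 (adjusted p = 0.0535, limma). *Serpinb1a* lay between -0.93 (without tumor T9232) and -0.40 (without tumor T11035), with a lowest adjusted p of 0.0516, and *Serpinb6a* reached an adjusted p of 0.0316 without gland M11640, under the fold threshold at 0.61. Counts moved for the granzymes (3 up without any of 5 libraries, 1 down in 8 alternatives) and for other lists of few calls, and the causes were not tested. With 1 fragment a gland, the depth limits how well a fold of *Serpinb12* can be given, and p-values rest on 3 mice. Leaving out libraries for the pooled ratios was added after seeing the data.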
